A study of Ptychodera flava with 31 samples.

Results

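The step from the Agassiz larva to the transforming larva of the acorn worm Ptychodera flava was examined in 3 of the 31 RNA sequencing libraries of a developmental series: 2 libraries titled Agassiz and 1 titled transforming larvae. All libraries were made from whole wild-type animals, with no treatment named, and no age or number of animals per library was given in the labels for these stages. The transforming side has 1 library, so no spread exists on that side, and the same holds for the single adult library that served as the endpoint of development. The embryonic reference consisted of 16 libraries of 7 stages, from the 16-32 cell embryo through early and late blastula, early gastrula and mid gastrula (before and after mesoderm migration) to late gastrula. The deposited tables list 35854 transcript models under assembly identifiers, and 0 of these occur in the reference gene table, so transcripts are given by identifier, without gene names or functions. For the same reason the stage labels could not be checked against marker genes.

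Acorn worms are hemichordates, marine relatives of the echinoderms, and Ptychodera flava has a planktonic larval form, the tornaria. The tornaria swims and feeds with bands of cilia and passes through named stages, of which Agassiz is the last before metamorphosis. In the transforming larva the larval ciliary bands are lost and the body elongates towards the burrowing worm with its proboscis, collar and trunk. An embryo, a larva and a worm are thus built in succession from the same genome, which raises the question of whether transcripts that change at metamorphosis go back to a level seen in the embryo or on to that of the adult.

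The libraries held 14614662 and 16854216 estimated counts for Agassiz replicates 1 and 2, 15389682 for transforming larvae and 13621556 for the adult. The transforming library was close to both Agassiz libraries but outside their own likeness. Across transcripts, Pearson's r on the log2(TPM + 1) scale was 0.980 between the Agassiz libraries, 0.95 and 0.957 between transforming larvae and Agassiz replicates 1 and 2, and 0.807 between transforming larvae and the adult. Between Agassiz replicates 1 and 2 and the adult, r was 0.785 and 0.778. With the late gastrula libraries, r was 0.754 and 0.748 for transforming larvae and 0.770 to 0.777 for the Agassiz libraries. TPM is each transcript's share of the library after scaling by length, and transcripts are not independent replicates. Of 12393 tested transcripts with at least 10 TMM-scaled CPM (counts scaled to library size) in 1 of the 3 libraries, 496 (4.0%) were at least 2-fold apart between the Agassiz libraries. Between transforming larvae and Agassiz, 2050 (16.5%) were as far apart from replicate 1 and 1777 (14.3%) from replicate 2.

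A small set of transcripts changed between the Agassiz and the transforming larva, and by the test used here more fell than rose. Of 30661 transcripts tested, 725 (2.36%) were called, that is, they had an adjusted p under 0.05 by edgeR's quasi-likelihood test and a change of at least 2-fold. Of these, 306 were higher in transforming larvae (0.998% of those tested) and 419 lower (1.37%). The median log2 fold change was 2.30 among the risen and -2.31 among the fallen transcripts, and 112 rose and 124 fell by at least 8-fold. All 306 risen transcripts lay above both Agassiz libraries and all 419 fallen ones below both, where 75.1% of all tested transcripts lay outside both. The risen transcripts held 0.773% and 0.850% of TPM in the Agassiz libraries, 4.74% in transforming larvae and 2.75% in the adult. The fallen ones held 3.45% and 3.08% in Agassiz, 0.800% in transforming larvae and 0.95% in the adult. In RNA from whole animals, fewer cells of a type and less RNA per cell cannot be told apart.

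The size and the balance of the list depended on the fit. Without Agassiz replicate 1 there were 307 calls (86 higher, 221 lower), and without replicate 2 there were 583 (219 higher, 364 lower). The DESeq2 Wald test called 336 higher and 730 lower, while edgeR's default fit reversed the balance with 920 higher and 694 lower. Replicate 2 lay nearer to transforming larvae: it was above replicate 1 in 195 of the 306 risen transcripts (63.7%) and below it in 268 of the 419 fallen ones (64.0%), against 50.3% above and 46.2% below among all tested.

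**Figure D1:**
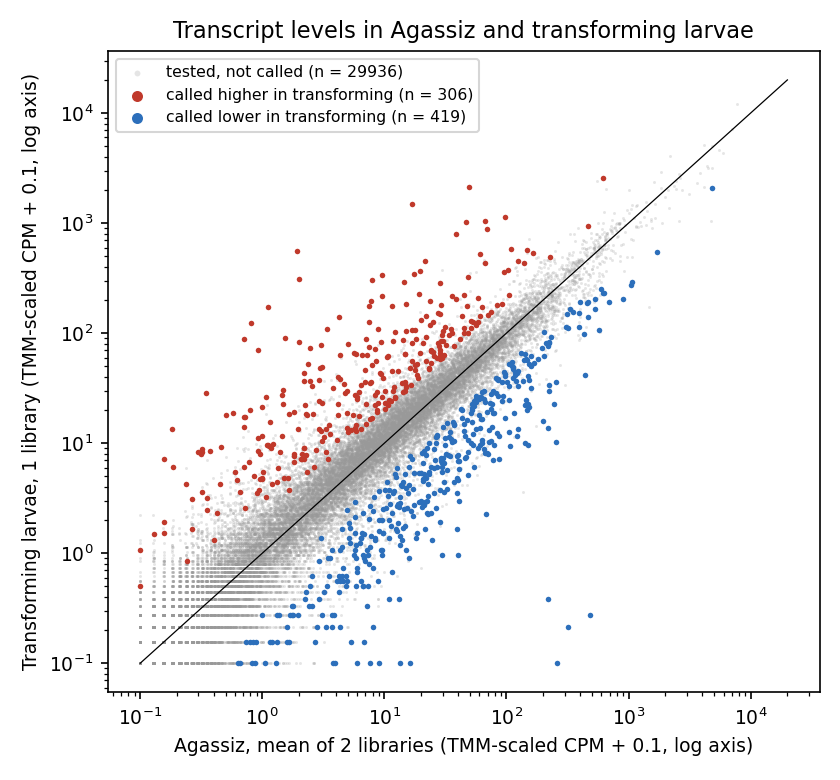
Each point is 1 tested transcript, with the mean of the 2 Agassiz libraries on the x axis and the transforming library on the y axis, both as TMM-scaled CPM plus 0.1 on log axes. The 306 risen (red) and 419 fallen (blue) transcripts flank the diagonal, and 4 fallen ones stand apart at the lower right, with Agassiz means above 200 and transforming levels under 0.5.

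The largest rises led from near absence to a substantial level. The transcript TCONS_00030674 (2213 bases) had 3.4 and 0.270 CPM in the Agassiz libraries, 556 CPM in transforming larvae and 65.7 CPM in the adult. No embryonic stage mean exceeded 0.473 CPM. The low values in Agassiz differ among themselves, but both are far under the transforming value, and the log2 fold change was 8.25 (standard error 0.71, edgeR adjusted p = 4.79e-06). TCONS_00006415 (2111 bases) had 0.0576 and 1.35 CPM in Agassiz, 123 CPM in transforming larvae and 0.244 CPM in the adult. Its mean was at most 0.428 CPM at every earlier stage before Agassiz, so that it was high in transforming larvae alone among the libraries. Its log2 fold change was 7.42 (standard error 1.01, edgeR adjusted p = 0.000322).

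The largest falls ended at or near 0 counts. TCONS_00050773 (2044 bases) had 354 and 167 CPM in the Agassiz libraries and 0 counts in transforming larvae. With 3 counts as the floor of the transforming library, it was at least 1493-fold lower (edgeR adjusted p = 0.00432). It had also been high in the Spengel larva, the stage before Agassiz, at 123 and 246 CPM, and was at 0.122 CPM in the adult. TCONS_00050771 (1995 bases) had 631 and 342 CPM in Agassiz and 3 counts (0.173 CPM) in transforming larvae, a ratio of 2793 between Agassiz and transforming with an exact conditional 95% interval of 956 to 13546 for counting error only (edgeR adjusted p = 0.00231). For these 2 transcripts the embryonic stage means were at most 0.797 and 2.56 CPM. The 4 transcripts with the largest rises and falls were called under each of 11 other fits.

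Among abundant transcripts, changes were smaller in fold but larger in share. The largest gain in TPM was that of TCONS_00032853, a short model of 259 bases, which had 624 and 904 TPM in Agassiz, 14648 TPM in transforming larvae and 11394 TPM in the adult. It thus rose to the neighbourhood of its adult share, from 31.6 and 45.5 CPM to 803 CPM, a log2 fold change of 4.38 (standard error 0.78, edgeR adjusted p = 0.00381). It was not called in 5 of 11 other fits: without Agassiz replicate 1, by the DESeq2 Wald test and in the limma fits on log2 TPM (range of adjusted p over all fits 1.75e-05 to 0.541). TCONS_00057184 (330 bases) had 2823 and 2581 TPM in Agassiz, 5347 TPM in transforming larvae and 464 TPM in the adult. Its log2 fold change of 1.11 (standard error 0.29, edgeR adjusted p = 0.0442) was not called in 8 of 11 other fits, among them those without Agassiz replicate 1 or 2 (adjusted p = 0.161 and 0.166; range over all fits 0.0205 to 0.166).

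The losses in TPM concerned transcripts that were present throughout development. TCONS_00023123 (1170 bases) had 1788 and 1783 TPM in Agassiz, 427 TPM in transforming larvae and 577 TPM in the adult, a log2 fold change of -1.94 (standard error 0.35, edgeR adjusted p = 0.00367). Its level in transforming larvae (273 CPM) was near that in Spengel larvae (286 and 282 CPM), so that the high value was that of Agassiz (1030 and 1070 CPM). TCONS_00006896 (876 bases) had 1520 and 1310 TPM in Agassiz, 239 TPM in transforming larvae and 66.4 TPM in the adult, a log2 fold change of -2.44 (standard error 0.51, edgeR adjusted p = 0.0105). With 928 and 721 CPM in Spengel and 608 and 545 CPM in Agassiz, its level was high over both late larval stages before it dropped to 106 CPM.

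The risen and fallen transcripts followed different courses through earlier development. The median over the risen transcripts was between 2.24 and 5.33 CPM from the egg to the Spengel larva, 7.05 CPM in Agassiz, 36.5 CPM in transforming larvae and 11.3 CPM in the adult. In the libraries themselves the medians were 6.08 and 7.48 CPM in Agassiz. The fallen transcripts climbed in the median from 2.20 CPM at the 16-32 cell stage to 22.5 CPM in the late gastrula and 37.2 CPM in the Meschnikoff larva. They stood at 26.3 CPM in Agassiz (28.0 and 23.4 CPM in the libraries), 5.18 CPM in transforming larvae and 2.62 CPM in the adult. Over all tested transcripts, the median was 4.21 CPM in Agassiz and 4.54 CPM in transforming larvae. The stage with the highest mean was the transforming larva for 157 of the 306 risen transcripts, the adult for 41, the egg for 30 and the 16-32 cell embryo for 32. Of the 419 fallen transcripts, 87 had their highest mean in Agassiz, 59 in Meschnikoff and 36 in the 72 hpf tornaria (hpf, hours post fertilization). Among all 30661 tested transcripts, 2812 had their highest mean in transforming larvae, 6416 in the adult, 2813 in the egg and 3092 in the 16-32 cell embryo. The egg and 16-32 cell shares of the risen list were thus near those of all tested. In Agassiz, Meschnikoff and the 72 hpf tornaria, 1973, 1512 and 932 of all tested had their highest mean.

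**Figure D2:**
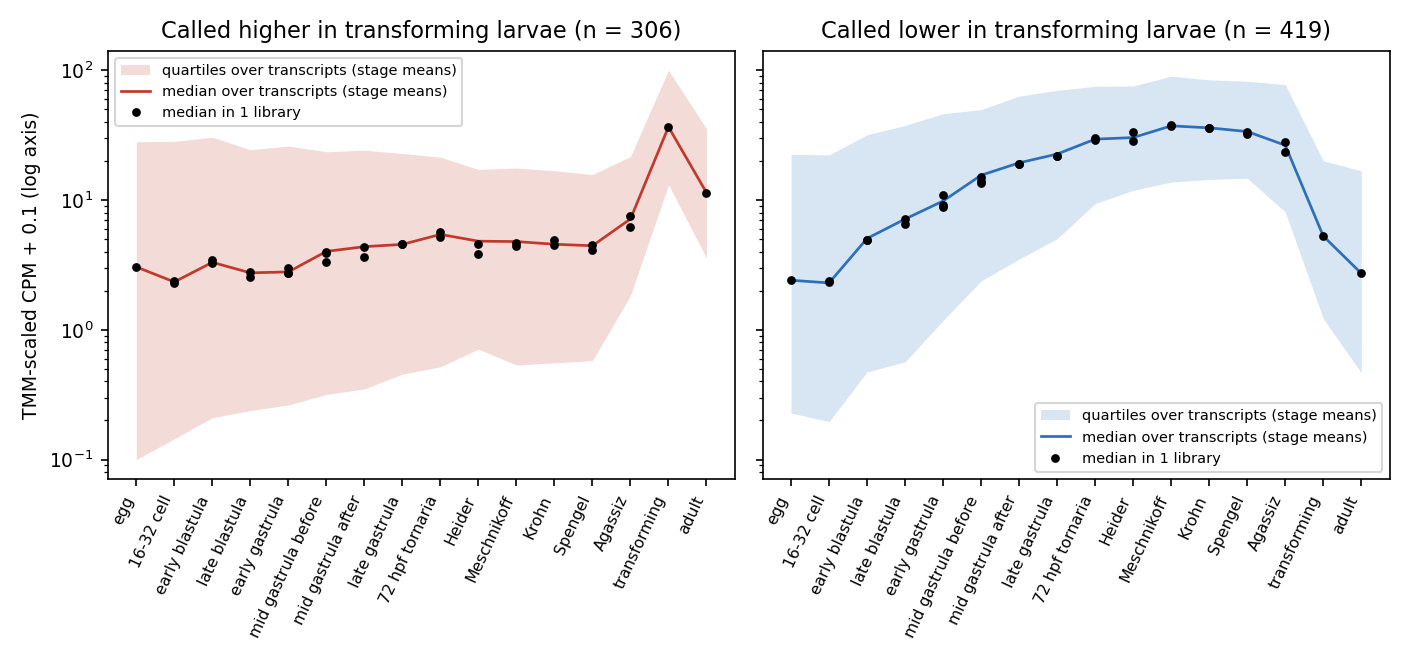
Lines give the median and shaded bands the quartiles over transcripts of the stage means for the 306 risen (left) and 419 fallen (right) transcripts, and black points give the median in each library, in TMM-scaled CPM plus 0.1 on a log axis. The risen list stays between 2.24 and 5.33 CPM up to the Spengel larva and peaks at 36.5 CPM in transforming larvae, while the fallen list drops from 26.3 to 5.18 CPM.

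Of the risen transcripts that began below the embryonic levels, 45.1% returned to them. Most of the risen list was above them in transforming larvae. The share already above them in Agassiz was near that of all tested transcripts. Each level was placed below, within or above the range of the 7 embryonic stage means. In Agassiz, 71 of the 306 risen transcripts were below this range, 111 within it and 124 above it. In transforming larvae, 34 were below, 72 within and 200 above (65.4%). The 124 above the range in Agassiz were 40.5% of the risen list. Among all tested transcripts, 11236 of 30661 were above the range in Agassiz and 11006 (35.9%) in transforming larvae. A return, from below the range into it, was seen for 32 (10.5% of the risen list). Of the others that began below the range, 34 stayed below and 5 passed above it. Another 71 left the range upwards from within (23.2% of the risen list, against 4.61% of all tested). Among all tested transcripts, 2.89% moved from below the range into it, which is 16.1% of those that began below. The calls rest on the same Agassiz and transforming values, so these counts are descriptions without a test. The count of returns was 8 of 86 risen transcripts without Agassiz replicate 1 (9.30%) and 33 of 219 without replicate 2 (15.1%), and it was 17 when only the 4 gastrula stages formed the range.

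Among the fallen transcripts, returns into the embryonic range were counted in the same way. In Agassiz, 174 of 419 were above the range, 206 within it and 39 below it, and in transforming larvae 84 were above, 217 within and 118 below. Of the 174 that began above the range, 86 returned into it (20.5% of the fallen list, against 5.35% of all tested). Another 84 were still above it and 4 fell below it. The returns were 49.4% of the fallen transcripts that began above, against 14.6% over all tested that began above. A fall to 0 counts was counted as a return where the lowest embryonic stage mean was 0 CPM. TCONS_00050773 was such a case, with embryonic stage means from 0 to 0.797 CPM. Returns into the range thus include transcripts that were absent or nearly absent in both embryo and transforming larvae. Another 75 left the range downwards from within (17.9% of the fallen list, against 2.37% of all tested). Without Agassiz replicate 1 the returns were 53 of 221 (24.0%), and without replicate 2 they were 98 of 364 (26.9%). Whether the share of returns differs between risen and fallen transcripts was not tested.

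Set against the gastrula, the risen transcripts were mostly above it and the fallen ones mostly below or not called. The lists and this contrast use the same single transforming library, so such a difference between the lists is in part built in. The counts are therefore descriptions of the lists. Transforming larvae were compared with the mean of the 4 gastrula stages (10 libraries) in the same edgeR fit, in which 49.2% of all tested transcripts were called: 31.9% of all tested transcripts were called higher in transforming larvae and 17.3% lower. Of the 306 risen transcripts 216 were called higher than in the gastrula (70.6%), 39 lower (12.7%) and 51 in neither direction. Of the 419 fallen transcripts 90 were called higher (21.5%), 193 lower (46.1%) and 136 in neither direction. Of the 32 risen transcripts that returned to the embryonic range, 21 were not called against the gastrula mean, 7 were lower and 4 higher. Of the 86 fallen ones, 65 were not called, 15 were higher and 6 lower. A transcript that is not called is not thereby shown to be at the gastrula level.

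The most abundant returning transcripts show the extent of such a return. TCONS_00031206 (3416 bases) had stage means between 327 CPM (16-32 cell) and 1052 CPM (early gastrula) in the embryo, 130 and 148 CPM in Agassiz, 433 CPM in transforming larvae and 305 CPM in the adult. The transforming value was above both Agassiz libraries and within the late gastrula libraries (466 and 283 CPM). It also lay within the Meschnikoff larva libraries (497 and 318 CPM), so the level was not particular to the embryo. The log2 fold change was 1.64 over Agassiz (standard error 0.34, edgeR adjusted p = 0.0112) and -0.33 over the gastrula mean (standard error 0.32, edgeR adjusted p = 0.39). The rise over Agassiz was not called without Agassiz replicate 1 (adjusted p = 0.104; range over all fits 0.000903 to 0.104). TCONS_00026649 (747 bases) had 48.5 and 54.7 CPM in Agassiz and 128 CPM in transforming larvae, against 96.3 ± 10.9 CPM at the 16-32 cell stage and 671 ± 19.4 CPM in the mid gastrula after mesoderm migration (SD, n = 2 each). It rose by 1.31 on the log2 scale (standard error 0.33, edgeR adjusted p = 0.0359) but stayed below the gastrula mean (log2 fold change -2.08, standard error 0.35, edgeR adjusted p = 4.07e-05). Its rise was not called without Agassiz replicate 1 or 2 (adjusted p = 0.213 and 0.0974; range over all fits 0.00995 to 0.213).

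Among fallen transcripts, TCONS_00012715 (4626 bases) was the most abundant that returned. It had 4114 and 5469 CPM in Agassiz, 2083 CPM in transforming larvae and 619 CPM in the adult, and 2184 ± 16.3 CPM in the early gastrula (SD, n = 3). The fall was -1.20 on the log2 scale (standard error 0.28, edgeR adjusted p = 0.022), and the log2 fold change over the gastrula mean was 0.29 (standard error 0.22, edgeR adjusted p = 0.283). The fall was not called without Agassiz replicate 2 (adjusted p = 0.114; range over all fits 0.000151 to 0.114). Nor was the fall called with only the 3 libraries compared. Heider to Spengel larvae held 501 to 1019 CPM, so the Agassiz level was the highest and the transforming level lay between it and the earlier larvae. TCONS_00051340 (306 bases) fell from 46.8 and 32.3 CPM in Agassiz to 4.72 CPM, near its late gastrula mean of 5.33 ± 0.61 CPM (SD, n = 2), and had 0.244 CPM in the adult. It was still called higher than the gastrula mean (log2 fold change 1.33, standard error 0.54, edgeR adjusted p = 0.0451). The fall from Agassiz was not called by limma on log2(TPM + 0.1). The log2 fold change was -3.07 (standard error 0.74, edgeR adjusted p = 0.0321), and it was not called without Agassiz replicate 1 (adjusted p = 0.132; range over all fits 0.0011 to 0.132).

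Against the adult, most risen transcripts ended above the adult level. By the definition used, about as many fallen transcripts reached it as did not, a balance that moved with the limit and the offset. A level counted as reached when it was within 2-fold of the adult after adding 0.5 CPM to both, and neither library has a replicate. Of the 306 risen transcripts, 130 were over 2-fold below the adult in Agassiz, 139 within 2-fold and 37 above. In transforming larvae, 21 were below, 98 within 2-fold (32.0%) and 187 above (61.1%). Of the 130 that began below the adult, 75 came within 2-fold of it, 34 passed it and 21 were still below. Of the 139 that were within 2-fold in Agassiz, 116 rose above the adult. Among all tested transcripts 59.9% were within 2-fold of the adult in Agassiz and 61.0% in transforming larvae, where 17.8% were over 2-fold above it and 21.1% below. The risen transcripts within 2-fold numbered 20 of 86 without Agassiz replicate 1 (23.3%) and 61 of 219 without replicate 2 (27.9%), 54 with a limit of 1.5-fold and 148 with one of 3-fold.

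The fallen transcripts started mostly above the adult. In Agassiz, 347 of 419 were over 2-fold above it (82.8%, against 17.4% of all tested), 62 within 2-fold and 10 below. In transforming larvae 144 were above (34.4%), 216 within 2-fold (51.6%) and 59 below (14.1%). Among all tested transcripts, 17.8% were above the adult in transforming larvae, 61.0% within 2-fold and 21.1% below. Of the 347 that began above, 196 came within 2-fold of the adult, 144 were still above it and 7 fell past it. The number of fallen transcripts at the adult level was 285 with a limit of 3-fold. With the 2-fold limit it was 179 when 0.1 CPM was added and 278 when 2 CPM was added. Without Agassiz replicate 1 the number within 2-fold was 110 of 221 (49.8%), without replicate 2 it was 181 of 364 (49.7%), and with a limit of 1.5-fold it was 134. A return to the embryonic range and a level within 2-fold of the adult were both seen for 10 risen and 47 fallen transcripts. Transcripts within the embryonic range already in Agassiz are not part of these counts. Absence can meet both conditions, as in TCONS_00018394, with 0 CPM in transforming larvae and 0.122 CPM in the adult. How many of these transcripts were near 0 CPM was not counted, nor was the share over all tested transcripts.

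**Figure D3:**
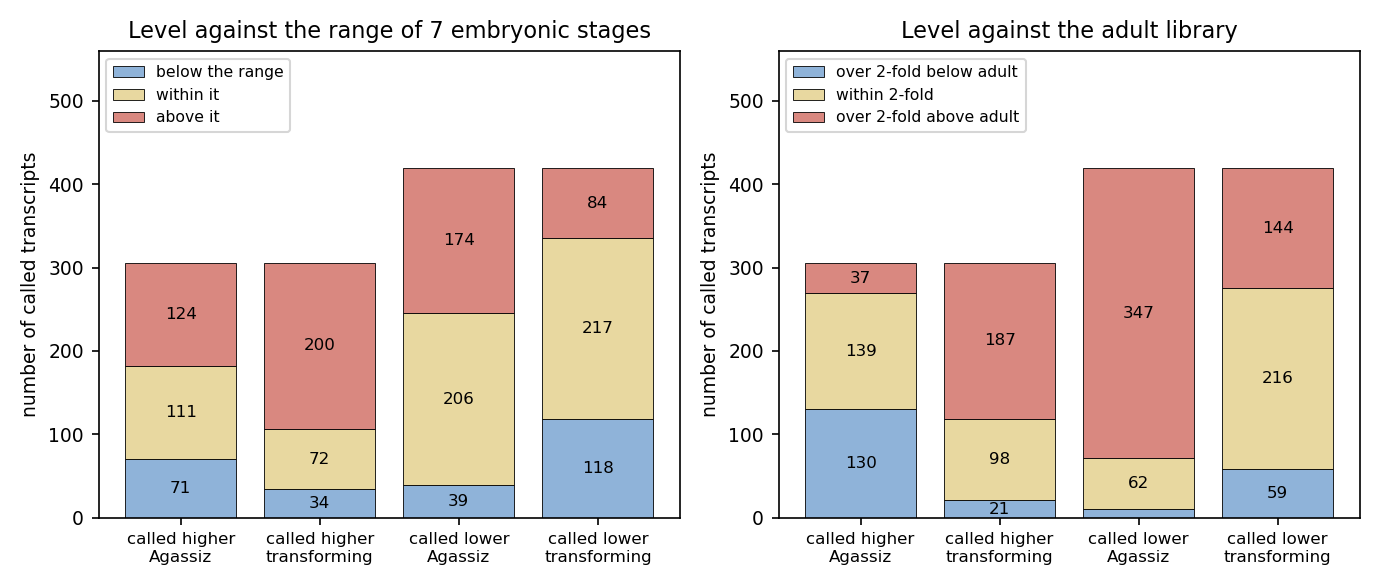
Stacked bars count the risen (306) and fallen (419) transcripts by their level in Agassiz (mean of 2 libraries) and in transforming larvae (1 library), against the range of the 7 embryonic stage means on the left and against the adult library on the right. The risen transcripts above the embryonic range go from 124 to 200 and those over 2-fold above the adult from 37 to 187, while the fallen ones over 2-fold above the adult go from 347 to 144.

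The transcripts that reached the adult level differed in what had come before. TCONS_00032853, described above, had 803 CPM in transforming larvae and 671 CPM in the adult after embryonic stage means of at most 0.227 CPM. TCONS_00036550 (1056 bases) had 78.6 and 110 CPM in Agassiz, 362 CPM in transforming larvae and 320 CPM in the adult. It had been high before Agassiz, at 293 and 375 CPM in Krohn and 248 and 215 CPM in Spengel larvae, so that Agassiz was a low point between larger values. Its log2 fold change was 1.94 (standard error 0.43, edgeR adjusted p = 0.0178), not called without Agassiz replicate 1 (adjusted p = 0.171; range over all fits 0.00193 to 0.171). The rise of TCONS_00036550 was also not called by limma on log2(TPM + 0.1). Among the fallen, TCONS_00023123 stood at 273 CPM in transforming larvae and 376 CPM in the adult. TCONS_00027522 (1329 bases) fell from 443 and 622 CPM in Agassiz to 164 CPM, with 88.8 CPM in the adult and 155 and 149 CPM in Spengel larvae. Its log2 fold change was -1.70 (standard error 0.32, edgeR adjusted p = 0.00517), and it was called under all 11 other fits.

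Among the risen transcripts, 99 (32.4%) were at least 2-fold higher in transforming larvae than at each of the 15 other stages, against 479 (1.56%) of all tested, while 40 were at least 2-fold above all 14 earlier stages and within 2-fold of the adult. The 99 had to be high in transforming larvae to be called, so their share is given as a description. For the 40, the share over all tested transcripts was not computed. The most abundant of the 99 was TCONS_00002413 (1622 bases). It had 14.2 and 84.3 CPM in Agassiz, 2145 CPM in transforming larvae and 854 CPM in the adult. TCONS_00002441 (1679 bases), also of the 99, had 1.10 and 32.3 CPM in Agassiz, 1503 CPM in transforming larvae and 744 CPM in the adult. In both, Agassiz replicate 2 was well above replicate 1 and the transforming library above both, and the embryonic stage means were at most 0.158 and 0.0732 CPM. The log2 fold changes were 5.44 (standard error 1.06, edgeR adjusted p = 0.0134) and 6.49 (standard error 1.04, edgeR adjusted p = 0.00312). The first was not called without Agassiz replicate 1 (adjusted p = 0.0999; range over all fits 0.000108 to 0.106), and neither was called by the DESeq2 Wald test (range for the second over all fits 7.68e-06 to 0.152).

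**Figure D4:**
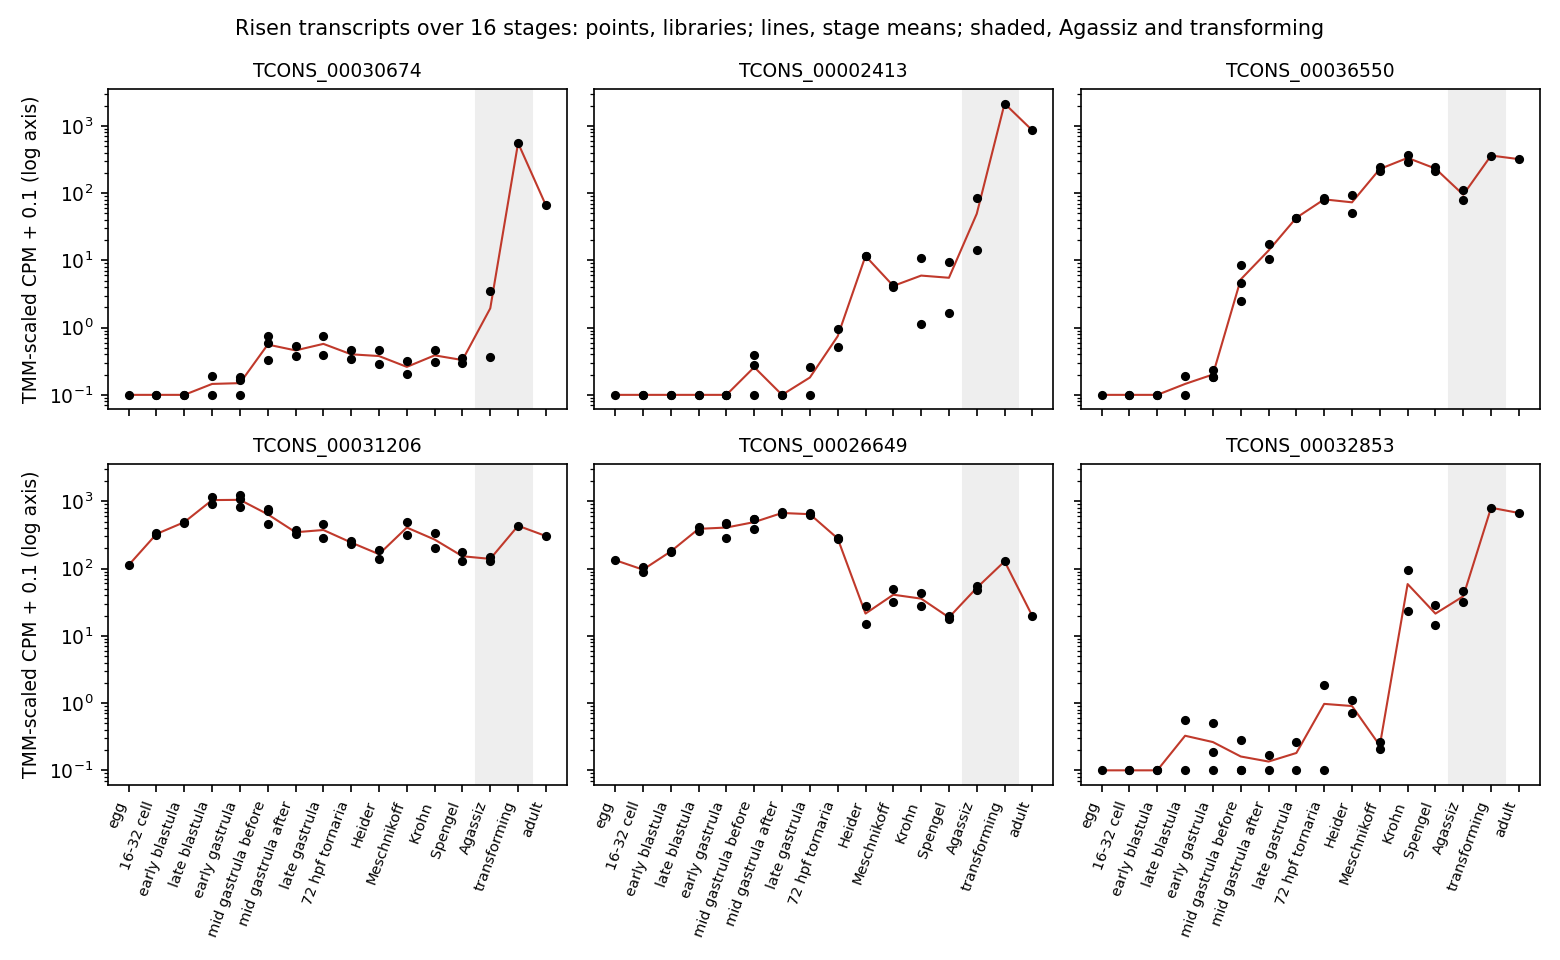
Points give TMM-scaled CPM plus 0.1 in each library and lines the stage means over 16 stages for 6 risen transcripts, on a shared log axis, with Agassiz and transforming larvae shaded. TCONS_00030674 goes from under 4 CPM in both Agassiz libraries to 556 CPM, TCONS_00036550 dips in Agassiz between larger values, and TCONS_00031206 and TCONS_00026649 come back into the range of their embryonic stages.

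Some fallen transcripts went at least 2-fold below both references. In 11 of 419 (2.63%) the transforming level was at least 2-fold below Agassiz, every embryonic stage mean and the adult. Transcripts below the embryonic range by a smaller margin are not in this count. The share over all tested transcripts was not computed for this class. TCONS_00019172 (2596 bases) had 22.5 and 21.0 CPM in Agassiz, 7.71 CPM in transforming larvae and 28.0 CPM in the adult, and its embryonic means ran from 68.6 CPM in the late blastula to 318 CPM in the late gastrula. It had declined since the 72 hpf tornaria, at 317 and 347 CPM, through Spengel larvae at 68.8 and 77.9 CPM. Its log2 fold change was -1.50 (standard error 0.25, edgeR adjusted p = 0.00182). TCONS_00033998 (2591 bases) had 9.86 and 11.7 CPM in Agassiz, 5 counts (0.288 CPM) in transforming larvae and 3.60 CPM in the adult, a log2 fold change of -5.19 (standard error 1.00, edgeR adjusted p = 0.00588). Its embryonic stage means were between 2.67 and 24.8 CPM, so the transforming value was the lowest of all stages. Both were called under all 11 other fits.

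**Figure D5:**
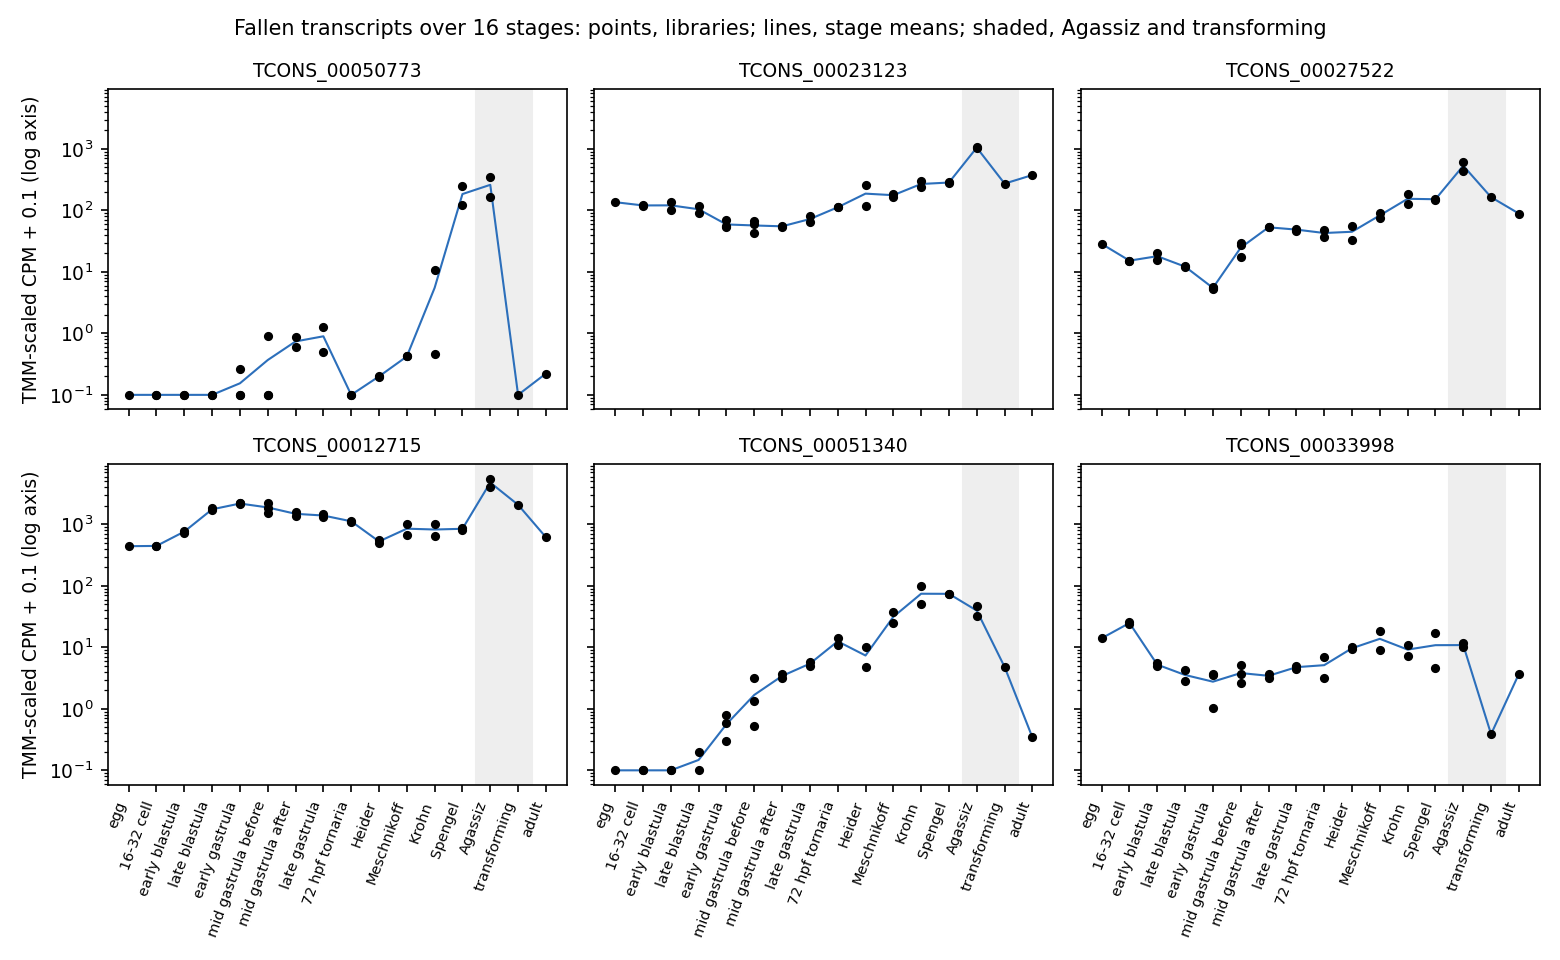
Points give TMM-scaled CPM plus 0.1 in each library and lines the stage means over 16 stages for 6 fallen transcripts, on a shared log axis, with Agassiz and transforming larvae shaded. TCONS_00050773 is high in Spengel and Agassiz larvae and at 0 counts in transforming larvae, TCONS_00023123 and TCONS_00027522 peak in Agassiz, and TCONS_00033998 reaches its lowest level, 0.288 CPM, in transforming larvae.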

How the data were processed

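Per the labels' protocols, total RNA was isolated with the RNeasy Micro Kit, and stranded polyA libraries were made with the TruSeq kit. The deposited files give estimated counts (expected counts) and TPM per transcript model. The submitters' processing notes name kallisto and edgeR. Tool versions, genome build and the origin of the models were not given in the sources used here. Estimated counts depend on how reads were shared between similar models.

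Rounded estimated counts entered edgeR 4.0.16 under R 4.3.3 (quasi-likelihood test, trended dispersion, TMM factors 0.604 to 1.34, filterByExpr by stage) on all 31 libraries with 1 coefficient per stage and 15 residual degrees of freedom. For the single transforming library, the spread of the replicated stages was taken. P-values were adjusted by Benjamini-Hochberg over 30661 transcripts. The labels call the replicates biological without naming cultures or parents, so p-values cover the spread between these libraries. CPM are counts scaled to the TMM library size. DESeq2 1.42.0 and limma 3.58.1 were used for other fits, and Python 3.11.15 for levels. Named transcripts are the 2 foremost risen and the 2 foremost fallen ones by fold, by TPM difference and, by TPM, in each class of level described, among calls with at least 10 CPM on the higher side that lay outside both Agassiz libraries. The comparison, the test and the lists were chosen with earlier results of these data known.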

Additional observations from a re-analysis of the deposited data

How the results depend on the processing

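The number of called transcripts (725, with 306 higher and 419 lower) was 1614 (920 and 694) with edgeR's default fit, 1352 (585 and 767) with only the 3 libraries compared, 1977 (931 and 1046) with limma on log2(TPM + 1), 1951 (921 and 1030) with limma on log2(TPM + 1) and no filter, and 1487 (602 and 885) with limma on log2(TPM + 0.1). The DESeq2 Wald test called 730 lower. Leaving out 1 Agassiz library gave 307 to 583 calls, 86 to 219 higher and 221 to 364 lower. The levels then gave 8 to 33 risen and 53 to 98 fallen transcripts returned to the embryonic range, and 20 to 61 risen and 110 to 181 fallen ones within 2-fold of the adult. The range of the 4 gastrula stages gave 17 risen returns, a limit of 1.5-fold gave 54 risen and 134 fallen transcripts at the adult level, and one of 3-fold gave 148 risen. The cause of these shifts was not tested. The other settings tried (DESeq2 size factors, no filter on low counts, adjusted p alone, TPM levels, the range of the 16 embryonic libraries, offsets of 0.1 and 2 CPM) moved each of these counts by less than 1.5 times. With the replicate number as a replicate block in the fit on all libraries, 869 transcripts were called (364 higher, 505 lower). The compared stages share only replicate 1, and differences between replicates 1 and 2 of Agassiz correlated with those of 11 other stages at -0.0875 to 0.174, so no pairing was assumed. Under all 11 other fits 69 of the 306 risen and 171 of the 419 fallen transcripts were called in the same direction. No library of transforming larvae could be left out, since there is 1.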

Other observations

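The 4 fallen transcripts that stand apart in the plot of Agassiz against transforming levels carry consecutive identifiers, TCONS_00050771 to TCONS_00050774, and were singled out after their values were seen. Their lengths are 1882 to 2044 bases. In every embryonic library they had at most 3.15 CPM, and they rose late in the larva: 0.361 to 1.60 CPM in Krohn replicate 1, 8.81 to 38.8 CPM in Krohn replicate 2, 123 to 263 and 246 to 566 CPM in the Spengel libraries, and 323 to 631 and 114 to 342 CPM in the Agassiz libraries. In transforming larvae they had 0 to 5 counts (at most 0.288 CPM) and in the adult at most 0.305 CPM. All 4 were called under all 11 other fits. The edgeR adjusted p was 0.00646 for TCONS_00050772 and 0.00765 for TCONS_00050774. Whether the 4 models share sequence, and so reads, was not tested.

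Called transcripts with neighbouring identifier numbers were found in both lists. Of 239 risen transcripts with a tested neighbour number, 25 (10.5%) had a neighbour that was also risen and 2 had one that fell. Of all tested transcripts with a tested neighbour, 1.35% had a risen neighbour. Of 321 fallen transcripts with a tested neighbour, 29 (9.03%) had a neighbour that was also fallen, against 1.82% of all tested with a tested neighbour. The longest runs held 3 risen and 4 fallen transcripts. What a neighbouring number means for position or sequence is not stated in the files.

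Set against the 5 earlier larval stages (72 hpf tornaria to Spengel), a comparison added after the levels had been seen, 70 of the 306 risen transcripts were below the range of the stage means in Agassiz, and 41 of these (13.4% of the risen list, against 7.86% of all tested) were back within it in transforming larvae. Of the 419 fallen transcripts, 138 were above that range in Agassiz, and 65 of these (15.5% of the fallen list, against 4.59% of all tested) were back within it, like TCONS_00023123. Another 171 (40.8%, against 16.5% of all tested) were below it in both Agassiz and transforming larvae. Among all tested transcripts 25.3% were below the range and 25.5% above it in Agassiz. In transforming larvae 238 risen transcripts (77.8%, against 29.3% of all tested) were above and 290 fallen ones (69.2%, against 24.2%) below every earlier larval stage mean. Of the risen transcripts, 83 (27.1%) had a level in the egg or the 16-32 cell embryo at or above that in transforming larvae. The share over all tested transcripts was not computed, so 27.1% cannot be called high or low.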
